A study of Mus musculus with 18 samples.

Results

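Gene expression in the arcuate nucleus of oil-treated female mice was compared between KIKO and ERKO, that is, between mice with an estrogen receptor alpha (ERα) that lacks response-element binding and mice without the receptor. The comparison used 6 of the 18 RNA-seq libraries of the series, 3 labelled KIKO oil and 3 labelled ERKO oil, and the 14773 of 23235 gene symbols with a mean of at least 0.5 FPKM (fragments of a gene divided by its length and by the size of the library) over all 18. The KIKO oil and ERKO oil groups, like the WT oil group set beside them, were ovariectomized C57/BL females. They were given oil on days 5 and 6 after surgery, and tissue was taken 24 h later, after 1 h without food. The KIKO E2 and ERKO E2 groups (3 libraries each) were handled in the same way but received estradiol benzoate, 250 ng and then 1500 ng, and gave the same genotype contrast in libraries the oil comparison does not share. KIKO, as the name is generally used, stands for a knocked-in ERα with a changed DNA-binding domain carried over a null allele. The labels give neither the construction of the alleles nor whether a library came from 1 animal. Replicates are therefore libraries, and p-values measure the spread between libraries, which may be partly technical. Because all oil groups were ovariectomized, the comparison concerns the receptor without added hormone.

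ERα, encoded by Esr1, is a nuclear receptor. In its classical route it binds estrogen response elements in DNA and recruits coregulators to nearby genes. In other routes it is tethered to factors such as AP-1 and SP1 or signals from the cell membrane through kinases, and it can also act without ligand after phosphorylation. The arcuate nucleus, at the base of the hypothalamus, holds the kisspeptin, neurokinin B and dynorphin (KNDy) neurons that pace gonadotropin secretion, and the AgRP/NPY and POMC neurons that control feeding. Several of these cell types carry ERα.

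Arcuate peptides were abundant in all 6 libraries: Pomc ran from 596 to 770 FPKM and Agrp from 89.2 to 164 FPKM, peptides that define the labelled tissue. Fragment totals, inferred from the confidence bounds the authors deposited, were 14138353, 26012387 and 18596029 for the KIKO oil libraries, against 18703921, 20673188 and 21869876 for the ERKO oil libraries. Each of the 6 correlated with its closest other library at 0.9899 or more over the genes tested. The library ERKO E2 3 stood apart, at 0.9186 to 0.9535 with all others. It is not in the oil comparison but enters the spread of the fit, so counts are also given without it.

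Esr1, on chromosome 10, is the targeted gene. It had 2.91, 4.08 and 3.94 FPKM in the KIKO oil libraries, against 1.62, 2.39 and 2.275 FPKM in the ERKO oil libraries. WT oil libraries had 5.38, 6.92 and 11.9 FPKM. The groups did not overlap: KIKO lay between ERKO below and WT above. The ratio of the KIKO mean to the ERKO mean was 1.74, and the log2 change of FPKM + 1 was 0.59 ± 0.32 (SE of the limma fit, 95% interval −0.10 to 1.27, adjusted p = 0.998). Without ERKO E2 3 in the limma fit, this change was 0.59 ± 0.22 (95% interval 0.12 to 1.05, adjusted p = 0.627). With only the 6 libraries compared it was 0.59 ± 0.15 (95% interval 0.25 to 0.92, adjusted p = 0.121). Under E2, Esr1 had 3.05, 3.89 and 2.85 FPKM in KIKO and 1.91, 2.345 and 0.2115 FPKM in ERKO, again without overlap (log2 change 0.90 ± 0.32, adjusted p = 0.788). Without ERKO E2 3, the lowest of these, the change under E2 was 0.44 ± 0.25 (95% interval −0.08 to 0.97). Implied fragments for Esr1 under oil numbered 170, 438 and 302 in KIKO and 125, 204 and 205 in ERKO. The ERKO values are levels of reads placed on the gene, whatever transcript they came from.

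With limma on log2(FPKM + 1), two-sided, with Benjamini-Hochberg adjustment over all genes tested and a threshold of 0.05, 0 of 14773 genes passed (0% called, smallest adjusted p = 0.998). At an unadjusted p under 0.05 there were 340 genes (2.3%), 162 of them higher in KIKO oil (1.1%) and 178 lower (1.2%). In 4158 genes (28.1%) the 3 KIKO oil libraries did not overlap the 3 ERKO oil libraries, 2014 of them higher in KIKO oil (13.6%) and 2144 lower (14.5%). Changes were small: the median was −0.007, and 87.7% of genes lay within 0.25 of 0 on the log2 scale. The typical SE was 0.16, and the median 95% interval reached 0.35 to either side. For 13957 genes (94.5%) this interval lay wholly within 1 log2 unit of 0, so that a difference of 2-fold or more in FPKM + 1 was outside it. Of 13 genes with an estimated change of at least 1 log2 unit, 6 higher and 7 lower in KIKO oil, Hbb-b1 and Igfbp2 were those without overlap between the groups. Counts of this kind depend on how libraries are weighed. Without ERKO E2 3 in the fit, 0 genes passed (smallest adjusted p = 0.129, for Gm221) and 1155 genes (7.82%) had an unadjusted p under 0.05. With only the 6 libraries compared, 0 passed (smallest adjusted p = 0.109, for C1ql2) and 3079 (20.8%) had an unadjusted p under 0.05. With limma's library weights, which give noisy libraries less influence, 75 genes passed (0.508%), 45 higher in KIKO oil (0.305%) and 30 lower (0.203%). All 75 were without overlap between the groups, and their changes measured 0.22 to 1.21 in size on the log2 scale. The weighted count fell to 20 without KIKO oil 1, 1 without KIKO oil 2, 1 without KIKO oil 3, 1 without ERKO oil 1 and 7 without ERKO oil 2, and was 66 without ERKO oil 3 and 0 with only the 6 libraries compared. Of the 75, 37 had the same sign of change under E2, or 60 without ERKO E2 3. Over all genes tested the shares were 39.1% and 63.2%. The E2 libraries also entered the weights and the spread of this fit, so these counts are not an independent check.

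**Figure D1:**
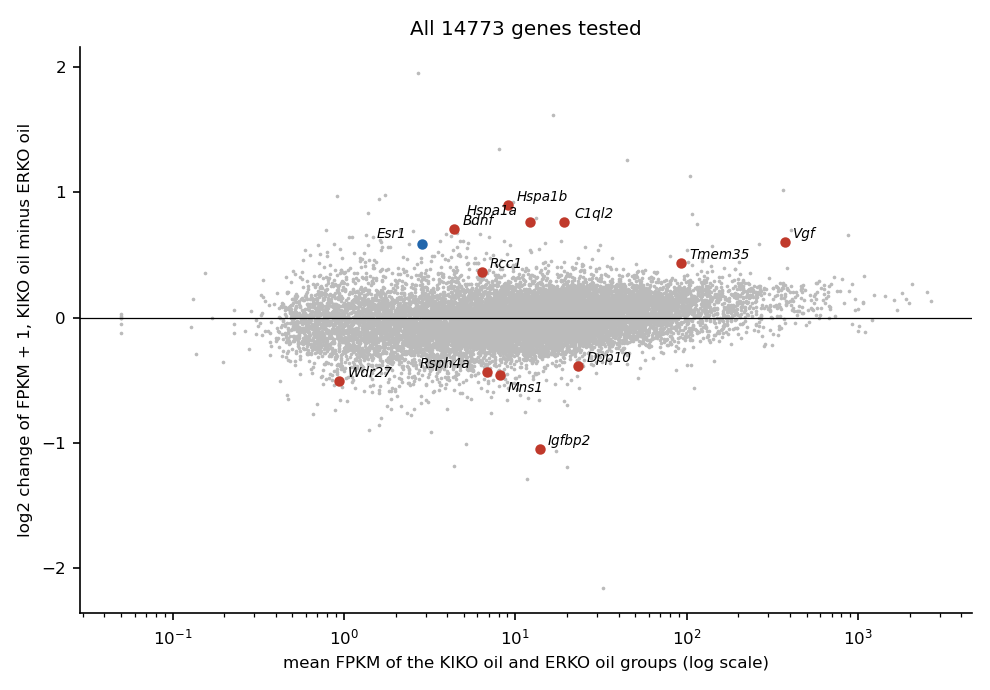
Log2 change of FPKM + 1, KIKO oil minus ERKO oil (vertical axis), against the mean FPKM of the 2 groups (log scale, values under 0.05 drawn at 0.05) for the 14773 genes tested, each a grey dot. Esr1 is blue and the 12 genes with the smallest p and no overlap are red; most dots lie within 0.25 of 0.

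Of the main KNDy genes, Kiss1, Pdyn and Tacr3 had higher values in every KIKO oil library than in any ERKO oil library, Tac2 overlapped, and none of the 4 passed the adjustment. Kiss1 encodes kisspeptin, which drives GnRH neurons. It had 482.5, 378 and 651 FPKM in KIKO oil, against 265, 280 and 370 FPKM in ERKO oil, and 520, 359.5 and 419 FPKM in WT oil. The lowest KIKO library stood just above the highest ERKO library. Pdyn, the dynorphin precursor, had 128, 120.5 and 165 FPKM in KIKO oil, against 68.0, 80.9 and 80.6 FPKM in ERKO oil, and 193, 132 and 190 FPKM in WT oil. Every KIKO library exceeded every ERKO library by a wide margin, and the ratio of the means was 1.80. Tac2, which encodes neurokinin B, had 1109, 824 and 1288 FPKM in KIKO oil and 585, 589 and 858 FPKM in ERKO oil, with the lowest KIKO and highest ERKO library overlapping. Its receptor Tacr3 had 9.67, 10.5 and 14.0 FPKM in KIKO oil and 7.59, 6.63 and 7.36 FPKM in ERKO oil, without overlap.

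The log2 changes of these KNDy genes were 0.83 ± 0.24 for Pdyn (95% interval 0.32 to 1.34), 0.70 ± 0.32 for Kiss1 (0.03 to 1.37), 0.66 ± 0.24 for Tac2 (0.16 to 1.16) and 0.58 ± 0.21 for Tacr3 (0.15 to 1.02). Each had an adjusted p of 0.998 in limma. Against WT oil, with which both comparisons share libraries, 0.0135% of genes passed for KIKO oil and 1.43% for ERKO oil. With library weights the adjusted p was 0.0116 for Pdyn, 0.0483 for Tacr3, 0.0771 for Tac2 and 0.11 for Kiss1. Of 21 tested members of a list of KNDy and reproductive peptides, 0 passed in either direction and 12 were above 0. Of the 21, 5 were without overlap and higher in KIKO oil and 2 lower, against 13.6% and 14.5% of all genes. The list's median change was 0.10, against −0.007 over all genes tested. The 2 lower members were Pgr, the progesterone receptor, and Tacr1, the substance P receptor. Summed neuronal markers ran from 1086 to 1108 FPKM in KIKO oil and from 1010 to 1072 FPKM in ERKO oil, without overlap, and their part in these values was not tested. In bulk tissue, fewer cells of a type and less RNA per cell cannot be told apart.

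Upstream of the Kiss1 start, the core word of the estrogen response element (GGTCA on either strand) was found at 2 places. The 250 bases before the start are shown because Kiss1 is the KNDy gene with the best-known estrogen control; they come from RefSeq on GRCm38.p6, chr1:133326962-133327211, plus strand, 5′ to 3′, and capitals mark the core words, both on the opposite strand.
Kiss1: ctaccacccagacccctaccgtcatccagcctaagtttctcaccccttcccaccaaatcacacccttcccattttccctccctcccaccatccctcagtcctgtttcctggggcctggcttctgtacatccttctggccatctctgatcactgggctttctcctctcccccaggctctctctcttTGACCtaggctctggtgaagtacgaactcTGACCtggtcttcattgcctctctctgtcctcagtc
The core word is common: 33.3% of 14821 such windows of tested genes held it. The full palindrome, GGTCANNNTGACC, was found in 0 of the 14821 windows, so this window gave no view of it. Of the 25 named genes with a RefSeq window, 8 held the core word in at least 1 window.

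The other neuropeptides of the arcuate nucleus separated into those that lay apart and those that did not. Ghrh, the growth hormone releasing hormone, had 127, 113 and 116.5 FPKM in KIKO oil, against 79.97, 90.1 and 75.1 FPKM in ERKO oil and 131, 126 and 124 FPKM in WT oil. KIKO and ERKO did not overlap, and the KIKO values approached those of WT. Gal, which encodes galanin, had 133.5, 135 and 165 FPKM in KIKO oil, against 72.2, 108 and 79.6 FPKM in ERKO oil and 475, 324 and 378.5 FPKM in WT oil. Here both genotypes lay far below WT, with KIKO above ERKO. The log2 changes were 0.54 ± 0.26 for Ghrh and 0.75 ± 0.28 for Gal (adjusted p = 0.998 for each). With library weights the adjusted p was 0.0483 for Ghrh and 0.0524 for Gal.

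The feeding peptides overlapped between the genotypes. Agrp, an antagonist of melanocortin receptors, had 164, 158.5 and 130 FPKM in KIKO oil and 157, 139 and 89.2 FPKM in ERKO oil. Npy, made in the same neurons, had 868, 733 and 648 FPKM in KIKO oil and 728, 730 and 439 FPKM in ERKO oil. The library ERKO oil 3 was the lowest for both genes. Pomc, the melanocortin precursor, had 770, 601 and 752 FPKM in KIKO oil and 663, 596 and 618 FPKM in ERKO oil, against 1418, 1162 and 1232 FPKM in WT oil. Cartpt, which encodes the CART peptide, averaged 394 ± 67.8 FPKM in KIKO oil and 361 ± 25.9 FPKM in ERKO oil (SD, n = 3 each). Sst (somatostatin) averaged 903 ± 58.5 FPKM in KIKO oil and 936 ± 32.6 FPKM in ERKO oil. Th, the rate-limiting enzyme of dopamine synthesis, averaged 63.0 ± 9.03 FPKM in KIKO oil and 52.9 ± 3.64 FPKM in ERKO oil. Intervals for the 6 genes reached from −0.51 at the lowest to 0.95 at the highest on the log2 scale, so changes of 2-fold in FPKM + 1 lay outside each of them. Of 29 tested feeding peptides and energy balance receptors, 0 passed, with a median of 0.10. Of the 29, 4 were without overlap and higher in KIKO oil and 5 lower, against 13.6% and 14.5% of all genes. Bdnf had the smallest p of this list and is described with the leading genes.

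Genes that estrogen induces through response elements had a median change near that of all genes tested. Pgr, the progesterone receptor and a classical target, had 3.62, 4.23 and 3.81 FPKM in KIKO oil, against 4.755, 4.70 and 5.52 FPKM in ERKO oil. KIKO lay below ERKO without overlap, while WT oil overlapped both, at 3.29, 4.59 and 5.44 FPKM. Prlr, the prolactin receptor, had 7.86, 8.82 and 7.39 FPKM in KIKO oil and 9.21, 9.12 and 10.6 FPKM in ERKO oil, also without overlap. Greb1, an ERα cofactor and target, was low in both, at 0.310 ± 0.0779 FPKM in KIKO oil and 0.266 ± 0.0836 FPKM in ERKO oil. It met the limit of 0.5 FPKM over all 18 libraries through WT E2, with a mean of 5.445 FPKM. Log2 changes were −0.29 ± 0.19 for Pgr, −0.24 ± 0.18 for Prlr and 0.05 ± 0.13 for Greb1 (adjusted p = 0.998 for each). Of 19 tested members of the response-element list, 0 passed, 10 were above 0, 2 were without overlap and higher in KIKO oil and 1 lower, with a median of 0.01. Cckar, the cholecystokinin receptor of satiety signalling, had the smallest p of this list, with 2.36, 3.60 and 2.78 FPKM in KIKO oil and 3.48, 3.86 and 3.61 FPKM in ERKO oil, which overlapped. Of 24 tested members of the list of genes reached through AP-1 or SP1, 0 passed, 10 were above 0, 2 were without overlap and higher and 4 lower, with a median of −0.01. Over all genes tested, 48.5% were above 0, 13.6% were without overlap and higher in KIKO oil and 14.5% lower. The smallest p of the AP-1 and SP1 list belonged to Hspb1, a small heat shock protein, with 13.9, 15.1 and 14.5 FPKM in KIKO oil and 8.68, 12.4 and 8.36 FPKM in ERKO oil.

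Of 15 tested receptors and coregulators, 0 passed, 3 were without overlap and higher in KIKO oil (Esr1 among them) and 4 lower, with a median of −0.06. Esrra, the estrogen-related receptor alpha, had 9.685, 10.35 and 11.6 FPKM in KIKO oil and 8.39, 8.66 and 9.05 FPKM in ERKO oil. Of 28 tested kinases and scaffolds of membrane estrogen signalling, 0 passed, 5 were without overlap and higher and 9 lower, with a median of −0.11. The medians of both lists are given again below with transcript length taken into account. Among all genes tested, 13.6% were without overlap and higher in KIKO oil and 14.5% lower.

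**Figure D2:**
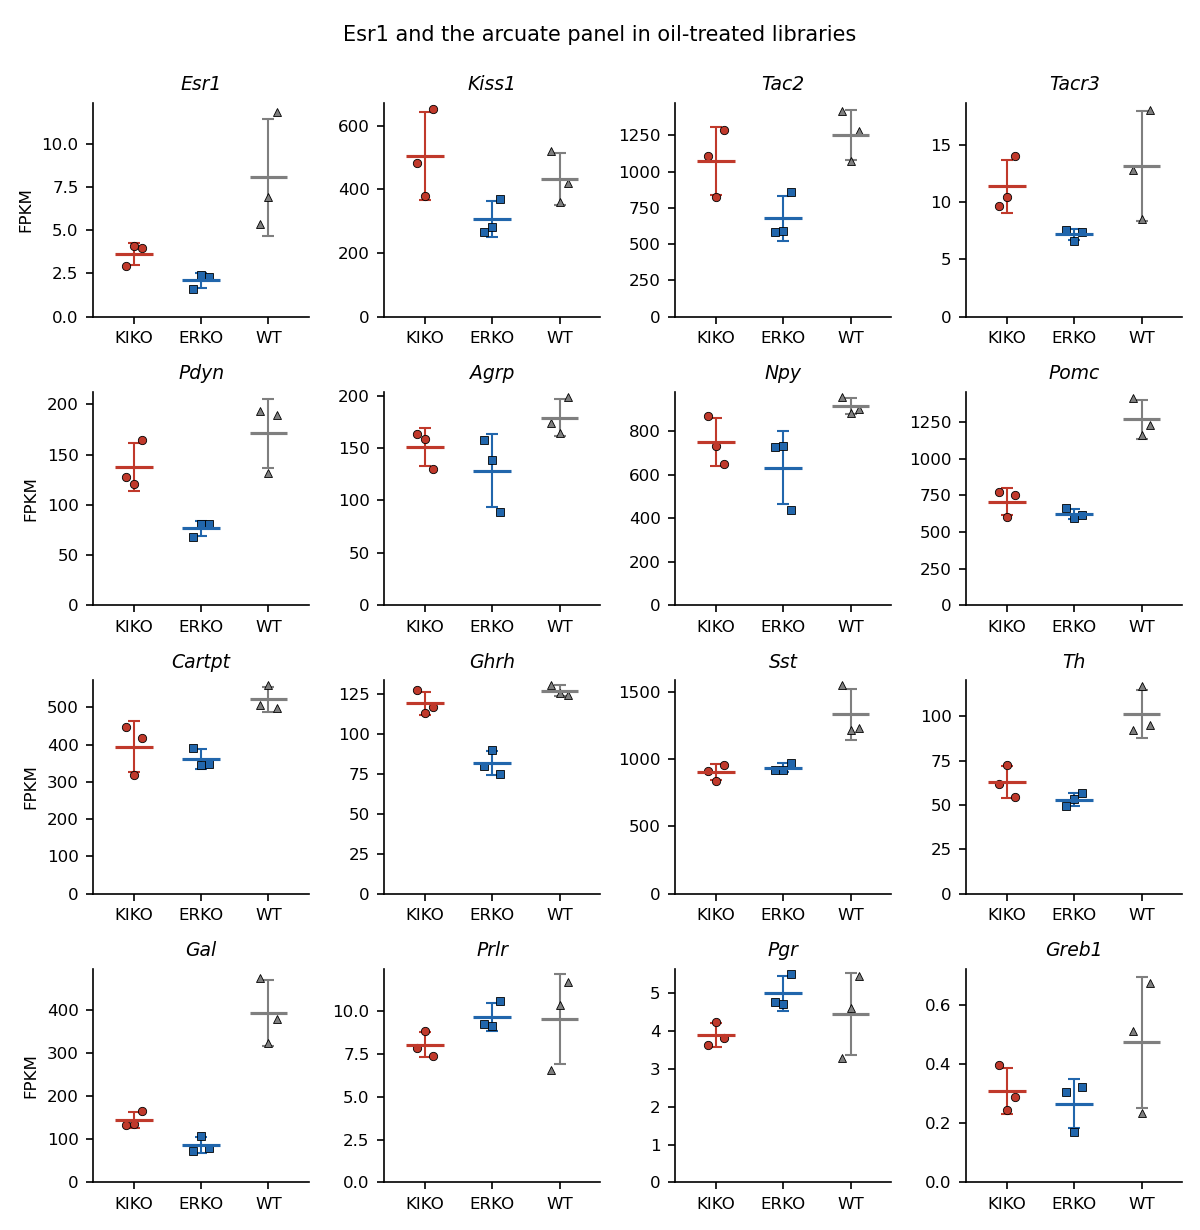
FPKM (vertical axes, from 0) of Esr1 and 15 arcuate genes in the 3 KIKO oil (red circles), 3 ERKO oil (blue squares) and 3 WT oil libraries (grey triangles), with bars for mean ± SD. Esr1, Kiss1, Tacr3, Pdyn, Ghrh and Gal are higher in every KIKO library than in any ERKO library, and Prlr and Pgr are lower.

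Among the 15 genes of this arcuate panel, 12 had a change above 0, 5 had an unadjusted p under 0.05 in limma, and 0 passed the adjustment. Groups were without overlap in 5 panel genes higher in KIKO oil and in 2 lower, against 13.6% and 14.5% of all genes. The panel was chosen with earlier results of these data known, so these counts are a description.

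The 12 genes with the smallest p among those without overlap, leaving out clone-named ones, were taken as the leading genes of the comparison. They were selected by the oil values, which are therefore given as a description. Of the 12, 7 were higher in KIKO oil and 5 lower.

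The inducible heat shock genes Hspa1a and Hspa1b, which encode the stress chaperone HSP70, led the genes that were higher in KIKO oil. Hspa1a had 16.96, 14.3 and 15.3 FPKM in KIKO oil, against 8.415, 7.77 and 9.96 FPKM in ERKO oil and 10.5, 13.0 and 12.7 FPKM in WT oil. Hspa1b had 14.1, 11.3 and 11.0 FPKM in KIKO oil, against 5.47, 4.94 and 7.90 FPKM in ERKO oil and 7.77, 8.26 and 9.61 FPKM in WT oil. For both genes every KIKO library exceeded every ERKO and WT library, and the WT mean lay between the other means. The ratios of the KIKO to the ERKO mean were 1.78 and 1.99. The log2 changes were 0.77 ± 0.17 for Hspa1a and 0.90 ± 0.21 for Hspa1b (adjusted p = 0.998 for each in limma, and 0.0109 and 0.0158 with library weights). The pair are near-identical copies on chromosome 17, so the counting may have split shared reads between them.

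The 250 bases before each start are shown because they let the likeness of the pair and their heat shock element be seen (RefSeq, GRCm38.p6, minus strand, 5′ to 3′; Hspa1a at chr17:34972157-34972406 and Hspa1b at chr17:34959239-34959488). Capitals mark the element GAANNTTC, searched on both strands.
Hspa1a: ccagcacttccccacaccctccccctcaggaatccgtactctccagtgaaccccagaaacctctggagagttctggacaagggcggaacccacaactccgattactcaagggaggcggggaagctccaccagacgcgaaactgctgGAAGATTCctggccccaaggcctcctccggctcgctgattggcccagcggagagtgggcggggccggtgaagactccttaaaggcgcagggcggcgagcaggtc
Hspa1b: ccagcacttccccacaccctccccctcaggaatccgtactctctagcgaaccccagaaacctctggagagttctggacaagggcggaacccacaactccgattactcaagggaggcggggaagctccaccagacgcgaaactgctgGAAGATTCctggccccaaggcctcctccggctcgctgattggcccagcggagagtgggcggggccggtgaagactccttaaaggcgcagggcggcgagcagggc
The 2 windows held the same base at 247 of 250 positions. The element stood at 1 place in each, its first base 104 bases before the start, and 4.93% of the 14821 windows of tested genes held it.

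The list of heat shock and unfolded protein response genes had 26 tested members, Hspa1a and Hspa1b among them. Of the 26, 0 passed and 19 were above 0. Without overlap were 8 higher in KIKO oil, the pair included, and 0 lower, against 13.6% and 14.5% of all genes. The list median was 0.09. Dnajb1, the HSP40 partner of HSP70, had 67.2, 59.5 and 67.0 FPKM in KIKO oil and 49.3, 50.3 and 48.3 FPKM in ERKO oil. Its groups lay well apart (log2 change 0.38 ± 0.13, adjusted p = 0.998, and 0.034 with library weights). The endoplasmic reticulum chaperone Hspa5 averaged 209 FPKM in KIKO oil and 216 FPKM in ERKO oil, and Hsp90aa1 260 FPKM in KIKO oil and 267 FPKM in ERKO oil.

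Bdnf and Vgf, secreted factors of neurons that affect energy balance, were higher in KIKO oil. Bdnf had 5.47, 5.02 and 6.56 FPKM in KIKO oil, against 3.00, 2.58 and 3.75 FPKM in ERKO oil and 4.87, 3.62 and 5.59 FPKM in WT oil. Its KIKO values lay near those of WT and above all ERKO values (log2 change 0.70 ± 0.19). Vgf had 403, 431 and 517 FPKM in KIKO oil, against 283, 313 and 289.5 FPKM in ERKO oil and 738, 650 and 605 FPKM in WT oil. KIKO lay between ERKO and WT without overlap with either (log2 change 0.60 ± 0.17). C1ql2, a synaptic C1q-like protein, had 24.2, 23.2 and 25.9 FPKM in KIKO oil, against 11.95, 15.1 and 15.0 FPKM in ERKO oil and 25.7, 26.5 and 19.6 FPKM in WT oil. Tmem35, a chaperone of nicotinic receptors on chromosome X, had 102, 108 and 111 FPKM in KIKO oil and 80.6, 72.05 and 84.6 FPKM in ERKO oil. Both genes thus stood near the WT oil level in KIKO. Rcc1, a chromatin-bound exchange factor for Ran, had 7.81, 6.72 and 7.33 FPKM in KIKO oil and 5.52, 5.52 and 5.23 FPKM in ERKO oil. The changes of C1ql2, Tmem35 and Rcc1 were 0.76 ± 0.20, 0.43 ± 0.11 and 0.37 ± 0.10 on the log2 scale. Each of these 5 genes had an adjusted p of 0.998. With library weights the adjusted p was 0.0277 for Bdnf, 0.0242 for Vgf, 0.0116 for C1ql2, 0.0153 for Tmem35 and 0.0483 for Rcc1, and all 12 leading genes passed.

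Igfbp2, which binds insulin-like growth factors, had the largest lower value among the leading genes. It had 8.515, 5.04 and 13.8 FPKM in KIKO oil, against 17.6, 20.7 and 17.6 FPKM in ERKO oil and 29.8, 24.8 and 37.0 FPKM in WT oil. The KIKO libraries were the lowest, and the 3 genotypes did not overlap. The log2 change was −1.05 ± 0.28 (95% interval −1.65 to −0.45, adjusted p = 0.998, and 0.0394 with library weights). The implied fragments were 135, 147 and 287 in KIKO oil and 370, 479 and 431 in ERKO oil. Of 15 tested insulin-like growth factors and binding proteins, 0 passed, with a median of −0.10. Of the 15, 1 was without overlap and higher in KIKO oil and 5 lower, against 13.6% and 14.5% of all genes. The 250 bases before the first of its 2 RefSeq starts are shown because they repeat the SP1 word GGGCGG, in capitals (GRCm38.p6, chr1:72824230-72824479, plus strand, 5′ to 3′).
Igfbp2: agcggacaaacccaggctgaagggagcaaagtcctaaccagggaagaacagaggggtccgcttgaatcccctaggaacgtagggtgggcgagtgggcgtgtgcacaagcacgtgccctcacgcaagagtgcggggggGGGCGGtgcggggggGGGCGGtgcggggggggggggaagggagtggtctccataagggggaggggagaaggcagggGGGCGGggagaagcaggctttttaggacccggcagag
The word stood at 3 places in this window, from 113 to 37 bases before the start, and 55.7% of the 14821 windows held it on either strand. The window before the second start held 0 SP1 words. It held 1 AP-1 word (TGANTCA, in 4.52% of windows) and 1 core word of the estrogen response element (in 33.3%).

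The remaining leading genes were lower in KIKO oil and near the WT oil level, while ERKO oil was high. Dpp10, an auxiliary subunit of A-type potassium channels, had 19.4, 21.8 and 18.7 FPKM in KIKO oil, against 25.6, 25.8 and 27.7 FPKM in ERKO oil and 16.1, 19.1 and 20.2 FPKM in WT oil. Wdr27, a WD-repeat protein, had 0.497, 0.651 and 0.653 FPKM in KIKO oil, against 1.40, 1.285 and 1.13 FPKM in ERKO oil and 0.551, 0.449 and 0.293 FPKM in WT oil. It rested on few fragments, 18, 42 and 30 in KIKO oil and 67, 68 and 63 in ERKO oil. Mns1, a protein of motile cilia and sperm tails, had 7.68, 6.67 and 5.73 FPKM in KIKO oil and 8.91, 9.43 and 10.2 FPKM in ERKO oil. Rsph4a, a radial spoke protein of motile cilia, had 4.75, 6.22 and 5.96 FPKM in KIKO oil and 8.17, 8.32 and 7.37 FPKM in ERKO oil. In all of these the groups lay apart, with changes of −0.38 ± 0.10, −0.50 ± 0.12, −0.46 ± 0.12 and −0.44 ± 0.12 on the log2 scale (adjusted p = 0.998 each). Motile cilia in this region belong to ependymal cells. Of 7 tested ependymal markers, 1 was above 0 and 3 were without overlap and lower in KIKO oil, against 14.5% of all genes. Their summed level ran from 144 to 153 FPKM in KIKO oil and from 150 to 170 FPKM in ERKO oil. Foxj1, the master factor of motile cilia, had 19.9, 18.5 and 23.4 FPKM in KIKO oil and 21.8, 21.9 and 19.1 FPKM in ERKO oil. The part of ependymal cells in the values of Mns1 and Rsph4a was not tested.

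**Figure D3:**
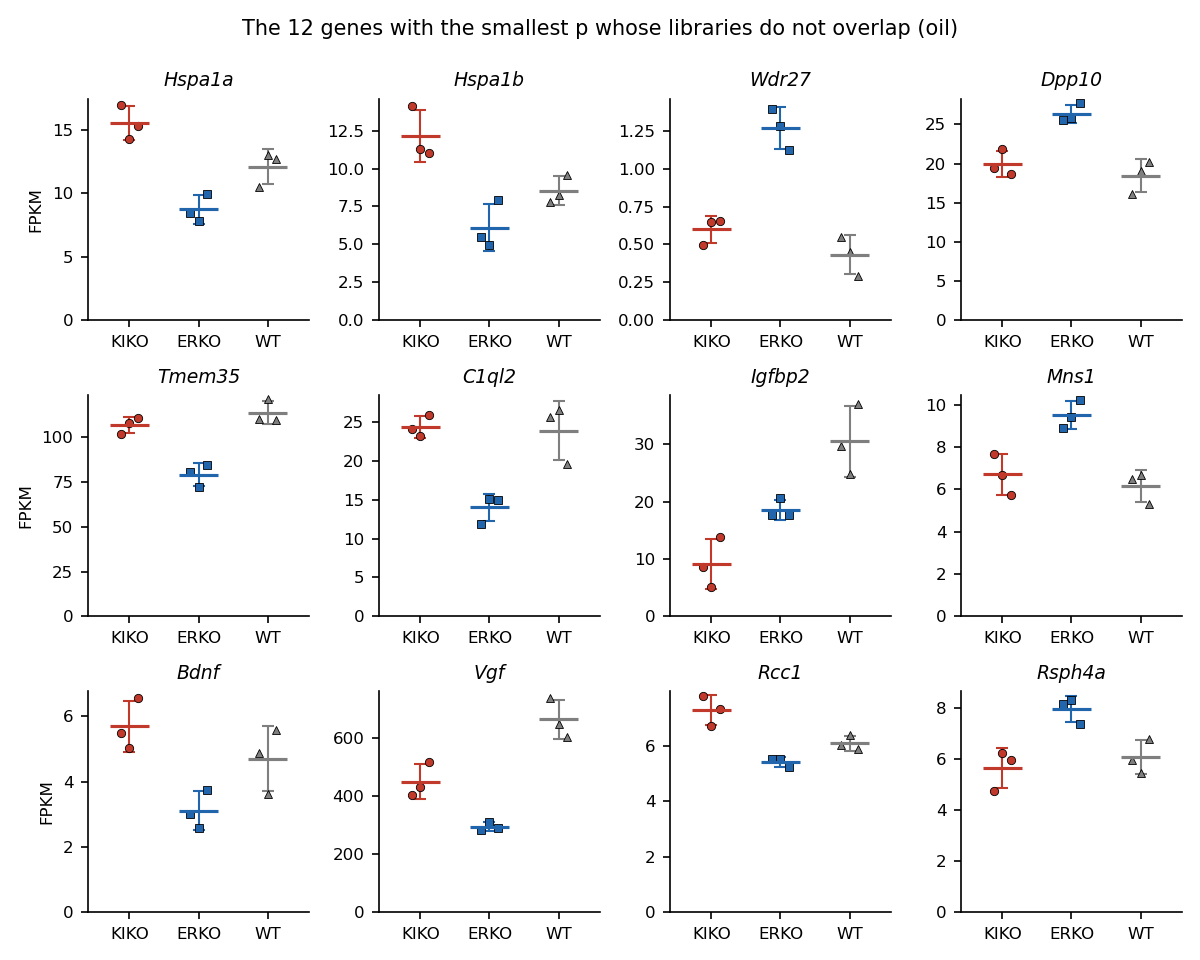
FPKM (vertical axes, from 0) of the 12 leading genes in the KIKO oil (red circles), ERKO oil (blue squares) and WT oil libraries (grey triangles), 3 each, with bars for mean ± SD. The KIKO and ERKO libraries do not overlap in any of the 12, by which they were chosen; for Igfbp2 both lie below WT.

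The E2 groups allowed the leading genes to be looked at in libraries whose values did not enter the oil changes. Those libraries did enter the expression limit and the spread of the fit, and so the ranking by p. The counts under E2 are therefore not an independent check. Of the 12, 8 had a change of the same sign under E2, and 3 had an unadjusted p under 0.05 in limma. Opposite in sign were C1ql2 (−0.36 ± 0.20), Vgf (−0.21 ± 0.17), Bdnf (−0.08 ± 0.19) and Tmem35 (−0.07 ± 0.11), all higher in KIKO oil. Igfbp2 and Mns1 again lay apart in the same direction, against 5.5% of all genes apart under E2, 3.86% higher in KIKO E2 and 1.64% lower. Changes above 0 under E2 made up 55.3% of genes. Igfbp2 had 6.88, 6.21 and 6.69 FPKM in KIKO E2 and 22.2, 21.8 and 18.4 FPKM in ERKO E2 (log2 change −1.52 ± 0.28, 95% interval −2.12 to −0.92, adjusted p = 0.251). Mns1 had 7.99, 7.52 and 7.03 FPKM in KIKO E2 and 10.6, 9.32 and 9.45 FPKM in ERKO E2 (−0.34 ± 0.12, adjusted p = 0.788). Rcc1 had 7.85, 6.76 and 6.09 FPKM in KIKO E2 and 5.53, 6.14 and 5.48 FPKM in ERKO E2, with a change of 0.23 ± 0.10 (adjusted p = 0.788). The heat shock pair overlapped under E2, with Hspa1a at 16.2, 12.9 and 11.3 FPKM in KIKO E2 and 14.3, 8.42 and 14.1 FPKM in ERKO E2. Bdnf overlapped too, at 1.995, 3.97 and 3.045 FPKM in KIKO E2 and 3.35, 2.76 and 3.39 FPKM in ERKO E2. Of the arcuate panel, Pdyn kept its direction, with 116, 116 and 116 FPKM in KIKO E2 and 79.7, 89.1 and 40.8 FPKM in ERKO E2 (0.80 ± 0.24, adjusted p = 0.788). Without ERKO E2 3, the change of Pdyn under E2 was 0.45. Kiss1 had a change under E2 of −0.74, Tac2 and Gal −0.05 each, and Tacr3 and Ghrh −0.07 each. Without ERKO E2 3 the values were −0.50 for Kiss1, 0.08 for Tac2, 0.38 for Gal, −0.16 for Tacr3 and 0.35 for Ghrh.

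Under E2, 2 of 14773 genes passed (0.0135%), and 475 (3.22%) had an unadjusted p under 0.05, 320 of them higher in KIKO E2 (2.17%) and 155 lower (1.05%). Both that passed were higher in KIKO E2: Gldn, which encodes gliomedin, with a log2 change of 2.08, and the clone-named 6330403A02Rik, with 1.42. Under oil, Gldn had 1.555, 2.12 and 2.695 FPKM in KIKO and 1.58, 1.78 and 1.62 FPKM in ERKO, which overlapped (0.22 ± 0.22). 6330403A02Rik had 5.46, 4.90 and 5.50 FPKM in KIKO oil and 3.86, 3.999 and 3.39 FPKM in ERKO oil, without overlap (0.41 ± 0.15, adjusted p = 0.998). The test of the difference between the E2 and oil contrasts called 0 genes (smallest adjusted p = 0.286, for Gldn) and gave 323 genes an unadjusted p under 0.05 (2.19%). Across all genes tested, which are not independent replicates, the changes under oil and under E2 correlated at −0.20 and shared their sign in 39.1%. Without ERKO E2 3 the correlation was 0.33 and the shared sign 63.2%. The sign of this relation thus rested on that library.

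**Figure D4:**
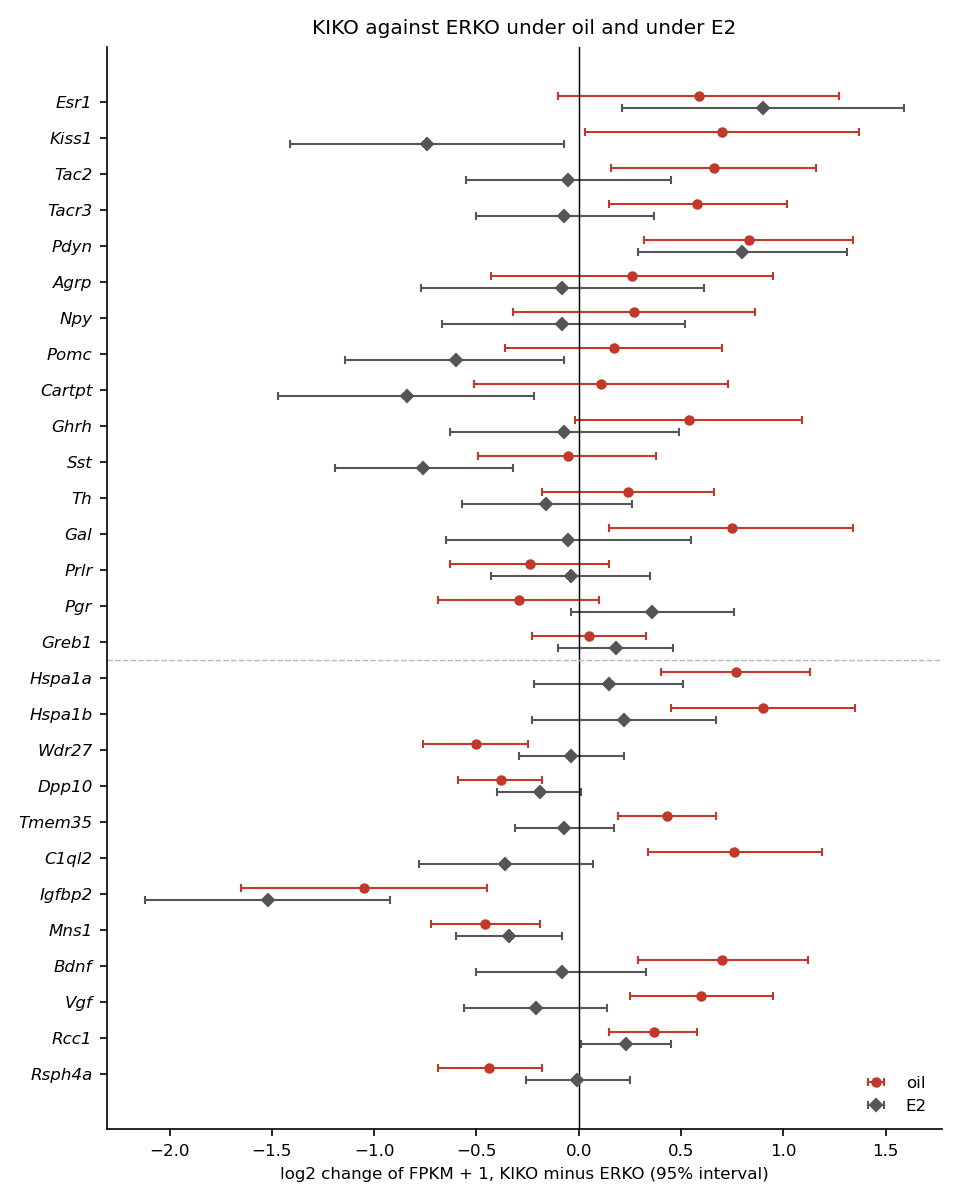
Log2 change of FPKM + 1, KIKO minus ERKO, with its 95% interval from limma (horizontal axis), under oil (red circles) and E2 (grey diamonds) for Esr1 and the arcuate panel, over the dashed line, and the 12 leading genes under it. The intervals of Pdyn, Igfbp2, Mns1 and Rcc1 lie on the same side of 0 in both, and those of Kiss1 on opposite sides.

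Of the other gene lists, the respiratory chain and the ribosome showed the most uniform direction. Of 42 nuclear genes of the respiratory chain, 40 had a change above 0 and 25 were without overlap and higher in KIKO oil, with 0 lower. Their median was 0.18, and their summed level ran from 7992 to 8471 FPKM in KIKO oil and from 7108 to 7422 FPKM in ERKO oil. Of 46 cytosolic ribosomal protein genes, 44 were above 0 and 20 were without overlap and higher, with 0 lower. Their median was 0.19, and their summed level ran from 10450 to 12150 FPKM in KIKO oil and from 9294 to 10160 FPKM in ERKO oil. Among all genes tested, 13.6% were without overlap and higher in KIKO oil and 14.5% lower. In each list 0 genes passed, and 0 had an unadjusted p under 0.05 in limma. Under E2 the medians were −0.3 for the respiratory chain and −0.36 for the ribosomal list, with 0 genes of either without overlap. The library ERKO E2 3 entered these E2 medians. Sdhc, a subunit of succinate dehydrogenase, had the smallest p of the first list, with 103, 104 and 96.5 FPKM in KIKO oil and 86.1, 83.8 and 80.4 FPKM in ERKO oil (log2 change 0.28 ± 0.14, adjusted p = 0.998).

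Lists of neuronal receptors and channels had medians under 0, which for both channel lists did not hold once transcript length was taken into account. Of 39 GABA and glutamate receptors and transporters, 11 were above 0, 12 were without overlap and lower in KIKO oil and 1 higher, with a median of −0.12. Gabrg1, a GABA-A receptor subunit, had 28.6, 30.5 and 30.3 FPKM in KIKO oil and 37.2, 32.8 and 40.1 FPKM in ERKO oil. Of 31 calcium, HCN, TRP and sodium channels, 10 were above 0, 9 were without overlap and lower and 2 higher. Of 31 potassium channels, 12 were above 0, 7 were without overlap and lower and 2 higher. Both channel lists had a median of −0.07. Nalcn, the sodium leak channel that sets the resting potential, had 25.2, 28.8 and 26.3 FPKM in KIKO oil and 31.7, 30.7 and 36.9 FPKM in ERKO oil. In each of the 3 lists 0 genes passed. Without overlap were 13.6% of all genes tested as higher in KIKO oil and 14.5% as lower.

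These lists differ in transcript length, and length moved with the change over all genes. Genes were put into 4 equal bins by length. In the shortest bin (median 1494 bases) the median change was 0.09 and 68.2% were above 0. The next bins had medians of 0.02 and −0.02. The longest bin (median 6326 bases) had a median of −0.10, with 23.8% above 0. Under E2 the median was −0.14 in the shortest bin and 0.15 in the longest. Without ERKO E2 3 these E2 medians were 0.08 and −0.06. The median lengths were 1232 bases for the respiratory chain and 1139 bases for the ribosomal list, against 4688 bases for the GABA and glutamate list. With a smooth trend on length removed from each library, the list medians were 0.07, 0.10 and −0.05. The counts above 0 were then 35 of 42, 39 of 46 and 15 of 39. The medians of the channel lists turned to the other side of 0: potassium channels had 0.02, with 16 of 31 above 0, and calcium, HCN, TRP and sodium channels 0.03, with 18 of 31 above 0. That of the estrogen receptors and coregulators became 0.04, with 10 of 15 above 0. The kinases and scaffolds of membrane estrogen signalling had −0.02, with 12 of 28 above 0. The trend itself was not tested between groups.

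**Figure D5:**
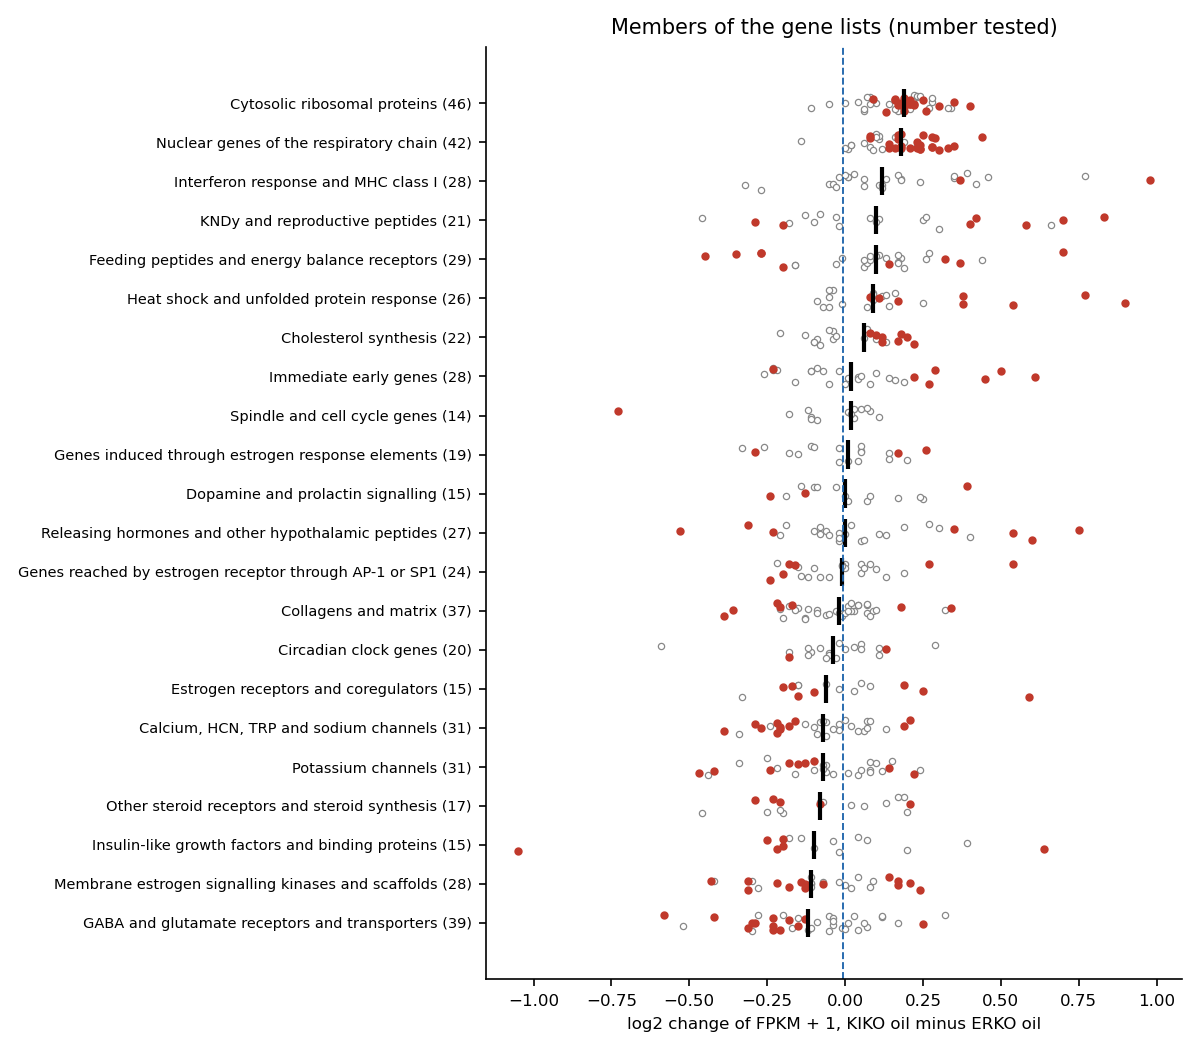
Log2 change of FPKM + 1, KIKO oil minus ERKO oil (horizontal axis), of each tested member of 22 gene lists, with the number tested in brackets. Red dots are genes without overlap between the groups, open dots the others, black bars the list medians and the dashed line the median of all genes; the ribosomal and respiratory chain lists have the highest medians, at 0.19 and 0.18.

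The lists not yet described had medians between −0.08 and 0.12 and 0 members past the threshold. Their counts without overlap stand against 13.6% of all genes higher in KIKO oil and 14.5% lower. Of 28 immediate early genes, 16 were above 0, 6 were without overlap and higher in KIKO oil and 1 lower, with a median of 0.02. Ier3, a stress-induced early gene, had 6.085, 6.09 and 4.70 FPKM in KIKO oil and 3.99, 3.50 and 3.52 FPKM in ERKO oil (0.50 ± 0.18). Fos averaged 21.9 FPKM in KIKO oil and 25.9 FPKM in ERKO oil. Of 28 interferon response and MHC class I genes, 21 were above 0 and 2 were without overlap and higher, with a median of 0.12. H2-D1, an MHC class I heavy chain, had 67.4, 56.8 and 53.2 FPKM in KIKO oil and 46.5, 44.8 and 44.7 FPKM in ERKO oil (0.37 ± 0.12). Under E2 it again lay apart and higher in KIKO (0.45, adjusted p = 0.788). Of 22 cholesterol synthesis genes, 8 were without overlap and higher, with a median of 0.06. Of 14 spindle and cell cycle genes, 1 was without overlap: Bub1b, a spindle checkpoint kinase, had 2.10, 1.86 and 1.13 FPKM in KIKO oil and 3.235, 3.58 and 3.43 FPKM in ERKO oil (−0.73 ± 0.29, adjusted p = 0.998, and 0.0381 with library weights). Of 15 genes of dopamine and prolactin signalling, 1 was without overlap and higher and 2 lower. The first was Cish, a target of prolactin receptor signalling, with 7.29, 5.96 and 5.31 FPKM in KIKO oil and 5.10, 3.505 and 4.93 FPKM in ERKO oil. Of 20 clock genes, 1 was without overlap and higher and 1 lower. Of 27 releasing hormones and other hypothalamic peptides, 4 were without overlap and higher, Vgf with the smallest p, and 3 lower, with a median of 0.00. Of 17 other steroid receptors and enzymes, 1 was without overlap and higher and 4 lower, with a median of −0.08. Of 37 collagen and matrix genes, 2 were without overlap and higher and 5 lower, with a median of −0.02.

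Markers of cell types were summed over each list. Of 10 markers of oligodendrocyte precursors, 8 were above 0, 6 were without overlap and higher in KIKO oil and 1 lower. Their summed level ran from 169 to 175 FPKM in KIKO oil, from 152 to 157 FPKM in ERKO oil and from 209 to 230 FPKM in WT oil, so the 3 genotypes did not overlap. Gpr17, a receptor of committed precursors, had 10.5, 11.7 and 12.95 FPKM in KIKO oil and 9.62, 9.15 and 6.83 FPKM in ERKO oil (0.43 ± 0.14, adjusted p = 0.998). Of 9 neuronal markers, 3 were without overlap and higher and 1 lower, and their sums did not overlap, as given with the KNDy genes. The neurofilament gene Nefm had 17.99, 22.15 and 26.98 FPKM in KIKO oil and 16.1, 16.0 and 15.8 FPKM in ERKO oil (0.44 ± 0.14), and Nefh had 14.8, 15.5 and 18.2 FPKM in KIKO oil and 12.65, 11.97 and 11.8 FPKM in ERKO oil (0.38 ± 0.12). Both neurofilament genes passed with library weights (adjusted p = 0.0294 and 0.0265). Of 10 endothelial markers, 1 was above 0 and 0 were without overlap, with a median of −0.15, and of 10 markers of pericytes and smooth muscle 2 were above 0 and 1 was without overlap, with a median of −0.18. The summed levels of markers of astrocytes, microglia, oligodendrocytes, tanycytes, meningeal fibroblasts, the anterior pituitary, the ventromedial nucleus and the dorsomedial, lateral and mammillary neighbours overlapped between KIKO oil and ERKO oil. Those of the choroid plexus summed to 39.0 to 44.1 FPKM in KIKO oil and 36.3 to 36.8 FPKM in ERKO oil. In all 17 marker lists 0 genes passed. The marker counts without overlap stand against 13.6% of all genes higher in KIKO oil and 14.5% lower.

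Cells from outside the nucleus were uneven between libraries. Cga, the glycoprotein hormone subunit of the pituitary and pars tuberalis, had 154, 64.2 and 35.7 FPKM in KIKO oil and 206.5, 168 and 0 FPKM in ERKO oil. Markers of the pars tuberalis summed to 311 to 752 FPKM in KIKO oil and 170 to 800 FPKM in ERKO oil. Those of vasopressin and oxytocin cells summed to 2837 to 4591 FPKM in KIKO oil and 1997 to 4553 FPKM in ERKO oil. Red blood cell genes summed to 288 to 442 FPKM in KIKO oil and 213 to 283 FPKM in ERKO oil, and Hbb-b1 had 50.9, 47.8 and 91.0 FPKM in KIKO oil and 13.3, 32.4 and 34.9 FPKM in ERKO oil (1.26 ± 1.06). The part of these cells in the differences above was not tested.

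The genotypes carry different alleles at Esr1, so genes near it on chromosome 10 were counted apart. In a window of 20 Mb to either side, 80 genes were tested and 0 passed; 7 (8.75%) had an unadjusted p under 0.05 and 28 (35.0%) were without overlap. Of 13975 genes on the other chromosomes, 2.23% had an unadjusted p under 0.05 and 3914 were without overlap. With library weights 4 of the 80 (5.0%) passed, against 0.487% on other chromosomes. Those described here were named after their values were seen. Gm221, called Ccdc170 by RefSeq and 0.1 Mb from Esr1, had 1.815, 2.35 and 1.60 FPKM in KIKO oil, against 4.66, 4.19 and 4.605 FPKM in ERKO oil and 3.05, 2.61 and 2.53 FPKM in WT oil. KIKO lay below WT and ERKO above it, without overlap (log2 change −0.92 ± 0.22). Under E2 it had 4.42, 3.38 and 2.67 FPKM in KIKO and 4.07, 3.29 and 1.34 FPKM in ERKO, which overlapped. The clone-named 9130014G24Rik, called Adgb by RefSeq and 5.7 Mb away, had 3.08, 2.86 and 2.29 FPKM in KIKO oil and 5.60, 5.21 and 4.76 FPKM in ERKO oil. It had the smallest p of all genes tested under oil (log2 change −0.73 ± 0.15, adjusted p = 0.998) and lay apart in the same direction under E2 (−0.32 ± 0.15, adjusted p = 0.788). Cited2, a transcriptional coregulator 13.1 Mb away, had 37.4, 37.9 and 38.3 FPKM in KIKO oil and 26.95, 31.9 and 30.5 FPKM in ERKO oil (0.34 ± 0.15, adjusted p = 0.998). The effect of the alleles on neighbouring genes and that of the receptor cannot be told apart in this design.

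Below the expression limit, Serpinb7, a serine protease inhibitor gene on chromosome 1, had 0.294, 0.388 and 0.416 FPKM in KIKO oil and 0.0317, 0.0574 and 0.0544 FPKM in ERKO oil. It was listed at 0 in all 3 WT oil libraries. It was the gene that passed when no expression limit was set, and was named after its values were seen. The KIKO oil values rested on 7, 17 and 13 implied fragments.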

How the data were processed

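Total RNA from microdissected arcuate nucleus was sequenced on an Illumina HiSeq2500, per the labels' protocols. The authors deposited 1 table per library with FPKM, its confidence bounds and a status for each gene. The submitters' processing notes name TopHat2 2.0, Cuffdiff and mm10; the annotation is not given in the sources used here. Gene starts did not lie on mm10 (4.87% of 22915 matched within 1000 bases), so chromosomes are given without positions; 98.95% of symbols matched RefSeq, which gave distances from Esr1 and sequences on GRCm38.p6.

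Entries sharing a symbol were summed (23699 entries, 23235 symbols). The expression limit was a mean of 0.5 FPKM; 58 small RNA genes were left out. Since the values are FPKM, no count model was used. limma 3.58.1 (R 4.3.3; trend and robust options) fitted log2(FPKM + 1) to 6 group means of 18 libraries, with 12 residual degrees of freedom, and was checked on simulated data. The added 1 understates changes of low genes. Values are FPKM per library or mean ± SD; changes are log2 ± SE, KIKO minus ERKO, and intervals are 95%. "Without overlap" means that all 3 libraries of one group exceed all 3 of the other. Fragment numbers were inferred from the bounds, were whole within 0.02 for 69.9% to 71.9% of genes checked, and cover counting error only. They did not enter the tests. The longest GENCODE transcript gave each gene's length (98.8% of genes tested).

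The rule for naming genes was Esr1, the arcuate panel, the 12 smallest p without overlap and without clone names, and the smallest p of each list. Dnajb1, Hspa5, Hsp90aa1, Fos, Tacr1, Foxj1, Nefh, Cga, Hbb-b1, Gldn, 6330403A02Rik, Serpinb7 and the genes described near Esr1 were named outside it, after their values were seen. The comparison, the 22 gene lists, the 17 marker lists and the panel were chosen with earlier results of these data known. Contrasts with WT share libraries with the comparison, so WT values are given only side by side. Software was matplotlib 3.10.9 for figures, and pandas 2.3.3 with numpy 2.4.6 under Python 3.11.15 for tables. The alternatives were other added constants, no expression limit, small RNA genes kept, quantile and median-of-ratios scaling, no trend, fewer libraries, library weights, a replicate block and each library left out. 1 item is not reported here.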

Additional observations from a re-analysis of the deposited data

Results flagged for a closer look

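Kiss1 had opposite directions in the 2 treatments. Under oil, all 3 KIKO libraries (482.5, 378 and 651 FPKM) lay above all 3 ERKO libraries (265, 280 and 370 FPKM). Under E2, all 3 KIKO libraries (280, 253 and 282 FPKM) lay below all 3 ERKO libraries (481, 306.5 and 629 FPKM). The change under E2 minus the change under oil was −1.44 ± 0.45 on the log2 scale (95% interval −2.39 to −0.49). Its unadjusted limma p was 0.00551, and it did not pass the adjustment over all genes (adjusted p = 0.746). WT libraries had 520, 359.5 and 419 FPKM under oil and 34.8, 58.25 and 20.9 FPKM under E2. Without ERKO E2 3, which stood apart from the other libraries, the change under E2 was −0.50 with a 95% interval of −1.24 to 0.24, which spans 0, against −0.74 with it. The size of the change under E2 and its interval thus rest partly on that library. The remaining ERKO E2 libraries (481 and 306.5 FPKM) still lay above all 3 KIKO E2 libraries.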

How the results depend on the processing

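In the oil comparison, the count of 0 genes past the threshold held under every alternative with unweighted libraries except the one without an expression limit, where 1 gene passed (Serpinb7). In the difference between E2 and oil, 2 genes passed without that limit (Serpinb7 and Tff3) and 1 (Gldn) without KIKO E2 1. Leaving out each oil library in turn gave 0. With library weights 75 genes passed. The count was 74 with the length trend also removed (55 shared with the 75), 73 without ERKO E2 3 (61 shared), 67 with the oil libraries alone (38 shared) and 0 with only the 6 libraries compared. With weights and a replicate left out, it was 20, 1 (Gm221) and 1 (Igfbp2) without KIKO oil 1, 2 and 3, and 1 (Gnpda1), 7 and 66 without ERKO oil 1, 2 and 3. These weighted combinations and the length correction were chosen after seeing the data. Whether the replicate numbers pair the libraries could not be decided from so few libraries. Deviations of same-numbered KIKO and ERKO oil libraries correlated at 0.193, −0.113 and 0.181, and those of different-numbered ones at −0.264 to 0.164. A replicate block gave 0 genes, and 142 with weights (71 shared). Under E2, 0 genes passed with only the groups compared. Esr1 ranged from 0.47 to 0.78. Of the other named genes, Cartpt was −0.05 with quantile normalization and Greb1, with a library left out, ran from −0.01 (without ERKO oil 2) to 0.09; the cause was not tested. With 3 libraries a group, and with ERKO E2 3 in the spread of the fit, a median 95% interval of 0.35 to either side limits what could be called.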
